A study of Homo sapiens with 4 samples.

Results

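Genes that encode endoderm lineage transcription factors were followed in A549 cells, an established line from a human lung adenocarcinoma, after siRNA knockdown of the transcription factor CEBPB. The members were chosen by name, with earlier results of these data known. They are HNF4A, HNF4G, FOXA1, FOXA2, FOXA3, GATA6, NKX2-1 and CDX2, 8 of the 57820 genes in the deposited data, each with a single entry. Of the 4 libraries, 2 had control siRNA (control 1 and control 2), 1 had CEBPB siRNA-1 and 1 had CEBPB siRNA-2. The labels name no other allele or agent, and the series title calls the line NRF2-activated, a state that the controls share. Fresh medium was given 24 h after transfection, and RNA was taken a further 24 h later. Each siRNA was used in 1 library, so the spread of the knockdown group includes the difference between the siRNAs. Since no label says that the controls were separate cultures, the p-values here reflect the spread of these samples alone, and that spread could be technical.

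FOXA factors are forkhead proteins that can bind closed chromatin and open it for other factors during endoderm development. HNF4A is a nuclear receptor of liver, kidney and gut, and HNF4G is its paralog in gut and kidney. In hepatocytes HNF4A sits in a circuit of mutual activation with FOXA factors. GATA6 acts early in endoderm and in the lung, NKX2-1 specifies lung and thyroid, and CDX2 specifies intestine. In lung adenocarcinoma, loss of NKX2-1 is known to go along with HNF4A and other gastric or liver-type genes.

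Levels are in FPKM, a read density corrected for both transcript length and sequencing depth, so that genes can be compared. The main test was limma on log2(FPKM + 1), restricted to 14068 genes that averaged 1 FPKM or more, and genes with a Benjamini-Hochberg adjusted p under 0.05 were called. The libraries summed to between 494066 and 528606 FPKM, and the authors' mean normalized counts summed to 8341080 reads per library. CEBPB itself read 78.7 and 80.9 FPKM in the control libraries, 12.9 under siRNA-1 and 10.97 under siRNA-2. All 4 epithelial markers examined (EPCAM, KRT8, KRT18 and CDH1) were above 1 FPKM in every library. Their summed level was 3597 and 5055 FPKM in the controls, 1819 under siRNA-1 and 2834 under siRNA-2. The 4 leukocyte markers and 2 endothelial markers (CDH5 and VWF) were listed at 0 throughout, and 3 fibroblast markers summed to 0 in the controls, 0.246 under siRNA-1 and 0.0698 under siRNA-2. In bulk RNA, fewer cells that express a gene and less RNA per cell cannot be told apart.

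Among the 8 factors, HNF4A and FOXA1 were lower with both siRNAs, and none of the other 6 was. Of all tested genes, 21% were lower in both siRNA libraries than in both controls. Both fell by the authors' deposited DESeq2 result on counts, where 2 of the 6 members with an adjusted p were called lower and 0 were called higher. Of all genes with an adjusted p there, 1.42% were called lower and 2.71% higher. GATA6, NKX2-1 and CDX2 averaged under 1 FPKM and were not tested in limma. There 0 of the 5 members tested were called lower, beside 0.171% of all genes, and 0 were called higher, beside 0.064%. At an unadjusted limma p below 0.05, 2 of those 5 were lower (HNF4A and FOXA1), against 5.13% of all genes, and 0 were higher, against 7.07%. The median log2 change of the 5 tested members was -0.15, beside 0.00103 for all tested genes.

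The upstream sequences of these 2 genes are shown because they are the members that were lower together. RefSeq gives 2 starts for HNF4A, and a gene-level value does not say which start a transcript used. The windows hold the 250 bases before each start in GRCh38.p14, at chr20:44355449-44355698 (plus strand) for the upstream start of HNF4A, chr20:44400989-44401238 (plus strand) for its downstream start and chr14:37595250-37595499 (minus strand) for FOXA1. Capitals mark matches to any of 4 motifs, searched on both strands.
HNF4A upstream start: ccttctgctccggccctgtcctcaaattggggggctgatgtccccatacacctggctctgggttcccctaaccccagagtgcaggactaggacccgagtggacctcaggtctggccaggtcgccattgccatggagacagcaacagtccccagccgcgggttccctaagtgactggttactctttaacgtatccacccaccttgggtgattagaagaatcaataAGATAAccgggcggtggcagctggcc
HNF4A downstream start: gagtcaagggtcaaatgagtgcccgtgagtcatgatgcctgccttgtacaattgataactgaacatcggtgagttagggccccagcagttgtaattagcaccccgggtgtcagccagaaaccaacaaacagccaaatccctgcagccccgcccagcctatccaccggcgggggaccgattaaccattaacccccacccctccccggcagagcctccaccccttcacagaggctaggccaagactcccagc
FOXA1: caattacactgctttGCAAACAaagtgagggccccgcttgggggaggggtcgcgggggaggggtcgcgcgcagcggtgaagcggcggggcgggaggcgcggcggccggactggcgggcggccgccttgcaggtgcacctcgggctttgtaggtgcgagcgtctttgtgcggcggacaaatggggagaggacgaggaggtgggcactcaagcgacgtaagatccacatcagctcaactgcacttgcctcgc

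The C/EBP motif searched, TTGCNNAA, matched in none of the 3 windows, and 9.05% of 35116 RefSeq promoter windows of the same length hold it. The HNF4 motif CAAAGTNCA, held by 0.94% of promoters, also had no match. The FOXA motif TGTTTNC matched FOXA1 on the opposite strand, 235 bases before the start, as it does somewhere in 15.5% of promoters. The GATA motif AGATAA (9.17% of promoters) matched 26 bases before the upstream HNF4A start. The downstream HNF4A window held none of the 4 motifs. A match in these letters is not a bound site, and a window without one says nothing of C/EBP binding elsewhere.

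HNF4A (ENSG00000101076.12), the nuclear receptor, was at 9.52 FPKM in control 1, 18.4 in control 2, 6.65 under siRNA-1 and 3.20 under siRNA-2. Both siRNA libraries lay below both controls, at 47.7% and 22.9% of the control mean. The controls themselves differed 1.93 times, a wider gap on the log2 scale than in 97.7% of tested genes. The limma estimate for HNF4A was -1.33 ± 0.41 on the log2 scale (SE, n = 2 per group; 95% interval -2.35 to -0.32; limma adjusted p = 0.291). The authors' deposited table gives -1.38 ± 0.33 (SE) with an adjusted p of 0.00166, at a mean of 344 normalized counts. An exact two-sided permutation test over these libraries gave p = 0.333, the smallest that 2 against 2 allows. The size of the HNF4A change rests on which libraries are used: limma gave -1.77 without control 1, -0.89 without control 2, -1.77 without siRNA-1 and -0.90 without siRNA-2.

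FOXA1 (ENSG00000129514.4), a forkhead pioneer factor, was at 9.48 and 11.4 FPKM in the controls, 4.53 under siRNA-1 and 3.58 under siRNA-2. The groups did not overlap, and the siRNA libraries were at 43.5% and 34.4% of the control mean. Its limma log2 change was -1.18 ± 0.21 (SE, n = 2 per group; 95% interval -1.70 to -0.65; limma adjusted p = 0.131). The authors' deposited table gives -1.27 ± 0.33 (SE), an adjusted p of 0.00476 and a mean of 194 normalized counts. FOXA1 passed in limma when the siRNAs were separate groups (limma adjusted p = 0.0277), a fit that called 3.08% of all genes lower. It also passed without siRNA-2 (limma adjusted p = 0.039), where 6.35% were lower. Both of these fits take their spread from the 2 controls alone. Over the tested genes, the log2 difference of the 2 control libraries had an SD of 0.350, against 0.554 for the 2 siRNA libraries. The error can thus be understated with 3 groups or with an siRNA library left out. Calls from such fits, here and below, add no support. The direction of FOXA1 was the same in all 12 alternatives fitted, from -1.34 to -1.04.

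Non-overlapping libraries alone are common here: 21% of tested genes were lower and 23.5% higher in both siRNA libraries than in both controls. The log2 changes themselves were less common. A lower limma log2 change than that of HNF4A was found in 1.12% of tested genes, and a lower one than that of FOXA1 in 1.51%. These shares only describe, as HNF4A and FOXA1 are the lowest of the tested members. The members were also chosen with earlier results of these data known. The summed epithelial markers given above, nearly all of it KRT8 and KRT18, were also lower in both siRNA libraries, and their part in these results was not tested. EPCAM was lower in both as well, while CDH1 overlapped, at 20.2 and 32.1 FPKM in the controls, 22.8 under siRNA-1 and 14.02 under siRNA-2.

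**Figure D1:**
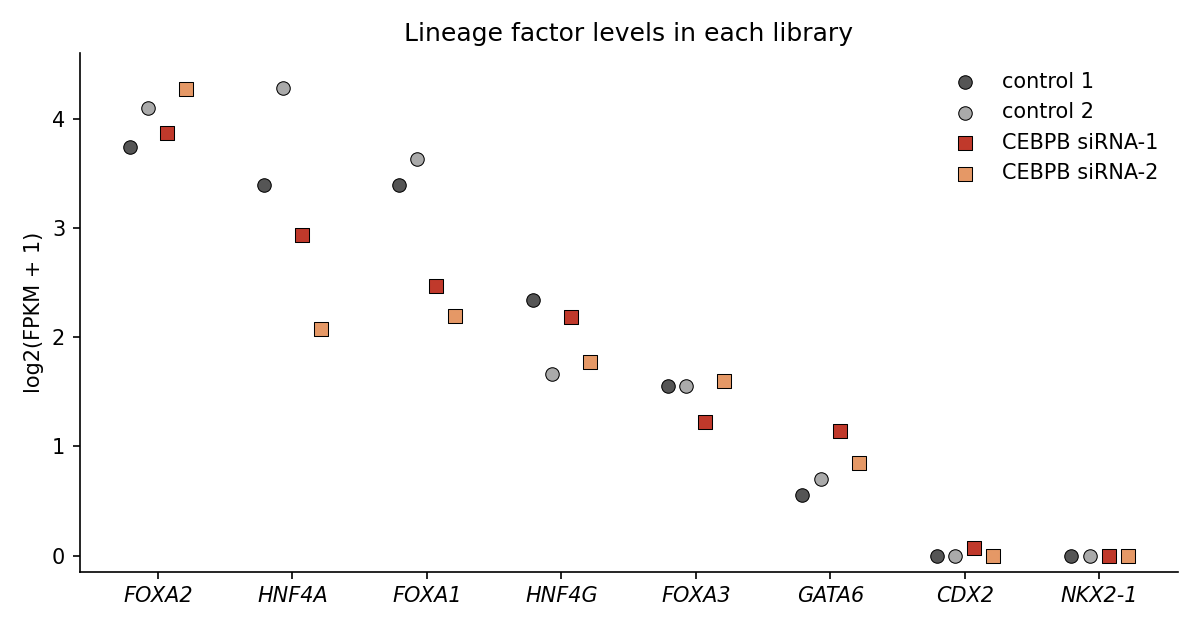
Level of each of the 8 factors as log2(FPKM + 1) in each library, with 1 point per library (circles, controls; squares, CEBPB siRNA), ordered by the control mean. The squares lie below the circles for HNF4A and FOXA1, above them for GATA6, and the groups overlap for FOXA2, HNF4G and FOXA3, while CDX2 and NKX2-1 lie at or near 0.

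FOXA2 (ENSG00000125798.10), a paralog of FOXA1 and a factor of gut, liver and lung epithelium, was not lower in both siRNA libraries. It was at 12.3 and 16.1 FPKM in the controls, 13.6 under siRNA-1 and 18.3 under siRNA-2. The siRNA-1 value lay between the controls and the siRNA-2 value above them. Its log2 change was 0.15 ± 0.23 (SE, n = 2 per group; 95% interval -0.42 to 0.72; limma adjusted p = 0.850). The authors' deposited table gives 0.14 ± 0.31 with an adjusted p of 0.999.

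FOXA3 (ENSG00000170608.2), the third FOXA gene and best known from liver, was at 1.94 FPKM in each control, 1.33 under siRNA-1 and 2.03 under siRNA-2. The groups overlapped in the sense that 1 siRNA library lay on each side of the controls. Its log2 change was -0.15 ± 0.25 (SE, n = 2 per group; 95% interval -0.77 to 0.47; limma adjusted p = 0.865). With a mean of 34.9 normalized counts, the authors' deposited table gives -0.27 ± 0.58.

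Within the FOXA family, FOXA1 held a smaller share and FOXA2 a larger share in both siRNA libraries than in both controls. The shares are parts of a whole, so a smaller FOXA1 share raises that of FOXA2, whose own FPKM overlapped between the groups. FOXA1 made up 39.9% and 38.6% of the summed FOXA FPKM in the controls, 23.3% under siRNA-1 and 15.01% under siRNA-2. The share of FOXA2 was 52.0% and 54.8% in the controls, 69.9% under siRNA-1 and 76.5% under siRNA-2, and that of FOXA3 stayed between 6.6% and 8.48% in all 4 libraries. The ratio of FOXA1 to FOXA2 was 76.7% and 70.5% in the controls against 33.4% and 19.6% in the siRNA libraries, a log2 difference of -1.52 (exact two-sided permutation p = 0.333, the smallest possible). The summed FOXA FPKM overlapped between the groups, at 23.8 and 29.4 in the controls, 19.4 under siRNA-1 and 23.9 under siRNA-2.

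HNF4G (ENSG00000164749.7), the paralog of HNF4A found in gut and kidney, was at 4.07 FPKM in control 1, 2.16 in control 2, 3.55 under siRNA-1 and 2.42 under siRNA-2. Both siRNA libraries lay between the controls. Its log2 change was -0.021 ± 0.32 (SE, n = 2 per group; 95% interval -0.81 to 0.76; limma adjusted p = 0.988), and the authors' deposited table gives -0.056 ± 0.43. The HNF4G controls differed on the log2 scale by more than those of 95.8% of tested genes, and in the opposite direction to HNF4A. HNF4A made up 70.0% and 89.5% of the summed HNF4 FPKM in the controls, 65.2% under siRNA-1 and 56.9% under siRNA-2 (exact two-sided permutation p = 0.333). The siRNA-1 share was thus close to that of control 1.

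**Figure D2:**
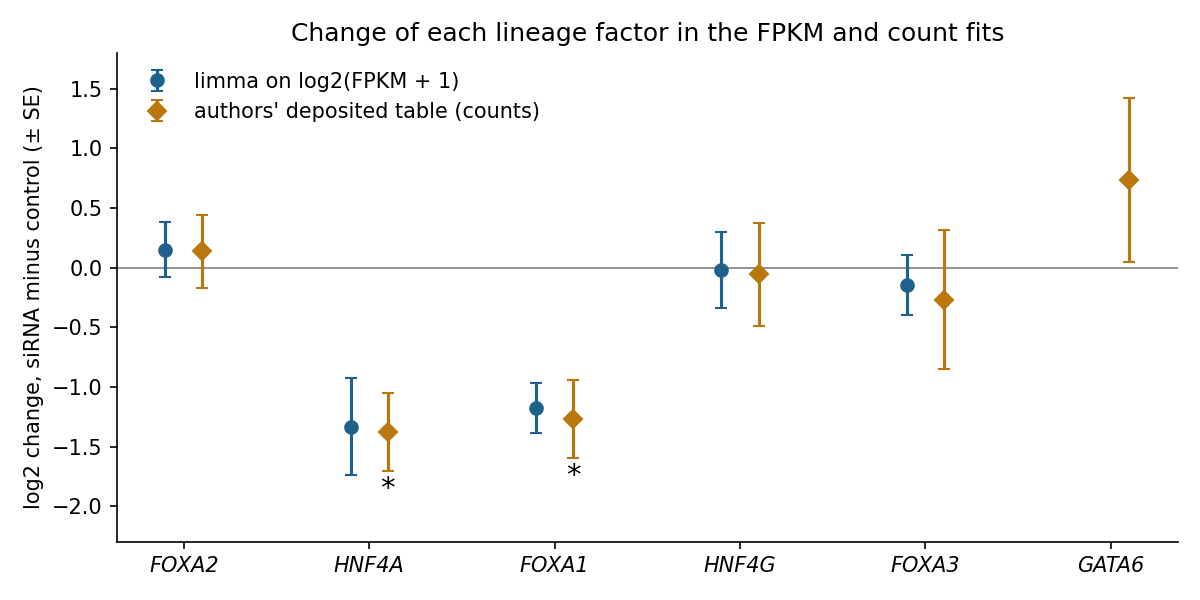
Log2 change of CEBPB siRNA minus control with its SE for the 6 members that have an adjusted p in the authors' deposited table; circles show limma on log2(FPKM + 1), diamonds the authors' values, and asterisks an authors' adjusted p under 0.05. HNF4A and FOXA1 lie between -1.38 and -1.18 in both, FOXA2, HNF4G and FOXA3 lie near 0, and GATA6 has an authors' value only.

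GATA6 (ENSG00000141448.4), a zinc finger factor of early endoderm, was at 0.468 and 0.626 FPKM in the controls, 1.21 under siRNA-1 and 0.803 under siRNA-2. Both siRNA libraries lay above both controls, at levels too low for the limma filter (mean 0.775 FPKM). The authors' deposited table puts the change at 0.73 ± 0.69 on the log2 scale (adjusted p = 0.913), from a mean of 25.9 normalized counts. With no expression filter, limma gave 0.37 (adjusted p = 0.701).

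NKX2-1 (ENSG00000136352.13), the lung and thyroid homeodomain factor, was listed at 0 FPKM in all 4 libraries, with an authors' mean of 0.484 normalized counts. CDX2 (ENSG00000165556.9), the intestinal homeodomain factor, was listed at 0 in both controls and under siRNA-2, and at 0.0499 FPKM under siRNA-1 (authors' mean 1.25 normalized counts). Neither has an adjusted p in the authors' deposited table. At this depth no difference was detectable for either gene.

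In the controls the order of mean levels was FOXA2 (14.2 FPKM), HNF4A (13.9), FOXA1 (10.4), HNF4G (3.12), FOXA3 (1.94) and GATA6 (0.547), with CDX2 and NKX2-1 listed at 0. The range of HNF4A overlapped those of FOXA2 and FOXA1, while FOXA1 lay below FOXA2. HNF4G, FOXA3 and GATA6 each lay below the preceding gene in both controls. FOXA2 had a higher control mean than 61.4% of tested genes, HNF4A than 60.9%, FOXA1 than 52.6%, HNF4G than 23.3% and FOXA3 than 14.01%. With siRNA the order began with FOXA2 (mean 15.9 FPKM), and HNF4A (4.92), FOXA1 (4.06), HNF4G (2.99), FOXA3 (1.68) and GATA6 (1.004) followed. Under siRNA-2, HNF4A, FOXA1 and HNF4G lay between 2.42 and 3.58 FPKM.

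A fit with 3 groups, which takes its spread from the controls, set the siRNAs against each other. Of the 5 members tested, 0 differed between siRNA-1 and siRNA-2 in limma, beside 0.441% of all genes, and 0 had an unadjusted p below 0.05, beside 22.4%. HNF4A showed the widest gap, 0.86 ± 0.45 higher on the log2 scale under siRNA-1 (95% interval -0.29 to 2.02; limma adjusted p = 0.328). For FOXA1 the difference was 0.27 ± 0.24 (95% interval -0.35 to 0.89). FOXA2 (-0.40 ± 0.24) and FOXA3 (-0.38 ± 0.26) were lower under siRNA-1, with intervals from -1.03 to 0.22 and from -1.05 to 0.29. The interval of HNF4A still includes differences larger than its change against the controls.

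**Figure D3:**
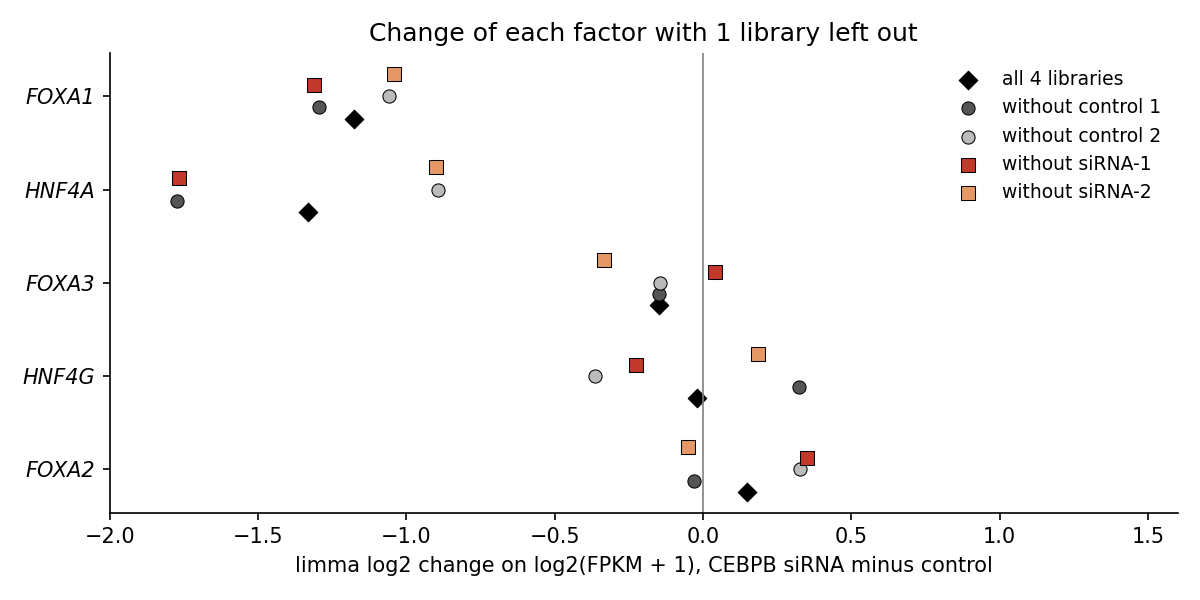
Limma log2 change of the 5 tested members with all 4 libraries (diamonds) and with each library left out in turn (circles, a control left out; squares, an siRNA library left out). FOXA1 stays between -1.31 and -1.04 and HNF4A between -1.77 and -0.89, while FOXA2, HNF4G and FOXA3 fall on both sides of 0.

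Reads of 76 bases, the length used here, were compared with all GENCODE 29 transcripts to see whether related genes could exchange reads. None of the positions in HNF4A, HNF4G, FOXA1, FOXA2, FOXA3 or CDX2 transcripts was identical to one of another gene on either strand. GATA6 shared 4.29% of its positions with GATA6-AS1 and 6.39% with AC091588.3, and NKX2-1 shared 9.93% with NKX2-1-AS1, in each case on the opposite strand. These 3 antisense genes were listed at 0 in all libraries. TTC6, which overlaps FOXA1 on the opposite strand, was at 0.131 and 0.153 FPKM in the controls, against 0.0761 and 0.072 with the siRNAs. Strand-specific libraries were prepared, but whether counting used the strand is not given in the sources used here.

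Other factors of the endoderm, lung and gut were examined as a list of 34 genes, of which 17 were tested in limma and 8 were listed at 0 in all libraries. In limma 0 were called, and the median log2 change was -0.20. At an unadjusted limma p below 0.05, 4 were lower, beside 5.13% of all genes, and 0 were higher, beside 7.07%. The count of 0 called rests on the fit: limma called 3 of the 17 lower with 3 groups (NR2F2, KLF5 and ELF3) and 5 without siRNA-2 (those and RXRA and SPDEF), beside the 3.08% and 6.35% of all genes given above. As given for FOXA1, those 2 fits can understate the error. ELF3, RXRA and SPDEF are named after their values were seen. None of them was called in the authors' deposited table, with log2 changes there of -0.63, -0.21 and -1.36. RXRA was at 10.7 and 9.30 FPKM in the controls, 4.94 under siRNA-1 and 8.05 under siRNA-2. NR2F2 alone was called without siRNA-1, beside 0.313% of all genes, and with a filter of 5 FPKM, beside 0.252%. The authors' deposited table has 2 of 23 lower and 1 higher, beside 1.42% and 2.71% of all genes with an adjusted p. NR2F2, an orphan nuclear receptor, fell by 1.47 on the log2 scale in that table (34.7 and 38.2 FPKM in the controls, 11.2 and 12.99 with the siRNAs; authors' adjusted p = 4.39e-08). KLF5, a zinc finger factor of gut and airway epithelium, fell by 1.34 in the authors' deposited table, from 39.0 and 47.7 FPKM to 13.6 and 21.6. PROX1, a hepatoblast and lymphatic factor, rose in the authors' deposited table by 3.20, from 0.0751 and 0.0654 FPKM to 1.21 under siRNA-1 and 0.203 under siRNA-2.

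Several hepatocyte genes known to be bound by HNF4A or FOXA factors fell by the authors' deposited values, though not all did. This list, like the others here, was chosen with earlier results of these data known. Binding was not measured here, and whether these genes fell through HNF4A, FOXA1 or CEBPB itself was not tested. Of 25 listed, 9 were tested in limma, with 0 called in either direction and a median log2 change of -1.12. At an unadjusted limma p below 0.05, 5 were lower, beside 5.13% of all genes, and 0 were higher, beside 7.07%. With 3 groups limma called 5 of the 9 lower (FGB, CPS1, APOH, F5 and F7), and without siRNA-2 it called 4 (all of those but F7). FGB alone was called without siRNA-1 and with a filter of 5 FPKM. The shares of all genes called lower in these fits are those given above for the other factors. As for FOXA1, the error can be understated with 3 groups or with an siRNA library left out. The authors' deposited table calls 6 of 11 lower and 0 higher, beside 1.42% and 2.71% of all genes with an adjusted p. FGB, the fibrinogen beta chain, was at 183 and 191 FPKM in the controls, 56.1 under siRNA-1 and 37.9 under siRNA-2, and APOH, a plasma glycoprotein, at 13.5 and 15.5 against 3.10 and 6.45. Coagulation factors F5 and F7 had log2 changes of -1.77 and -2.80 in the authors' deposited table. F7 was at 2.29 and 1.48 FPKM in the controls, 0.289 under siRNA-1 and 0.128 under siRNA-2. It passed the limma filter of 1 FPKM only through its controls, so its place in the limma counts of lower genes carries no weight. CPS1, the first enzyme of the urea cycle, was at 19.2 and 19.7 FPKM in the controls, 4.54 under siRNA-1 and 11.8 under siRNA-2 (authors' log2 change -1.25). TF, plasma transferrin, was at 0.967 and 1.11 FPKM in the controls against 0.137 and 0.0995 with the siRNAs. The authors' table gives it -3.24. Tested members that did not fall, named after their values were seen, include F2, CYP3A5, AMBP and APOM, none of them called. F2 was at 1.17 and 1.33 FPKM in the controls, 1.95 under siRNA-1 and 1.72 under siRNA-2. CYP3A5 was at 1.73 and 1.31 FPKM against 3.87 and 1.94. The authors' log2 change was 1.39 for AMBP and -0.05 for APOM. AMBP, at 0.942 and 0 FPKM in the controls, 2.61 under siRNA-1 and 0.806 under siRNA-2, passed the limma filter only through siRNA-1.

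Of 18 gastric and intestinal genes, 10 were listed at 0 throughout. Only CDH17 and MUC5AC were tested in limma, where 0 passed. At an unadjusted limma p below 0.05 both were lower, beside 5.13% of all genes. Both were called lower by limma with 3 groups (adjusted p = 0.0491 for CDH17 and 0.0413 for MUC5AC) and without siRNA-2 (0.0432 and 0.0496). The shares of all genes called lower in those fits are given above, as is the limit that their error can be understated. The authors' deposited table calls 4 of 6 lower and 0 higher, beside 1.42% and 2.71% of all genes with an adjusted p. CDH17, an intestinal cadherin, had an authors' log2 change of -1.37 (4.61 and 3.90 FPKM in the controls against 1.43 and 1.86), and the gastric mucin MUC5AC one of -0.89 (9.84 and 9.07 against 4.78 and 4.37). VIL1, villin of the brush border, was at 0.836 and 0.982 FPKM in the control libraries, at 0 under siRNA-1 and at 0.208 under siRNA-2. A1CF, the cofactor of apolipoprotein B mRNA editing, was at 0.913 and 0.912 FPKM against 0.164 and 0.202, an authors' log2 change of -2.34.

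Lung genes known to be bound by NKX2-1 gave little to compare, as 7 of 15 were listed at 0 in all libraries and 3 were tested in limma. None of the 3 was called by limma, and 1 was higher at an unadjusted p below 0.05, beside 7.07% of all genes. The authors' deposited table calls 1 of 5 higher and 0 lower, beside 2.71% and 1.42% of all genes with an adjusted p. The gene called is ABCA3, the lipid transporter of surfactant-storing lamellar bodies, at 14.6 and 11.2 FPKM in the controls, 24.8 under siRNA-1 and 21.99 under siRNA-2 (authors' log2 change 0.79, adjusted p = 0.0473).

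**Figure D4:**
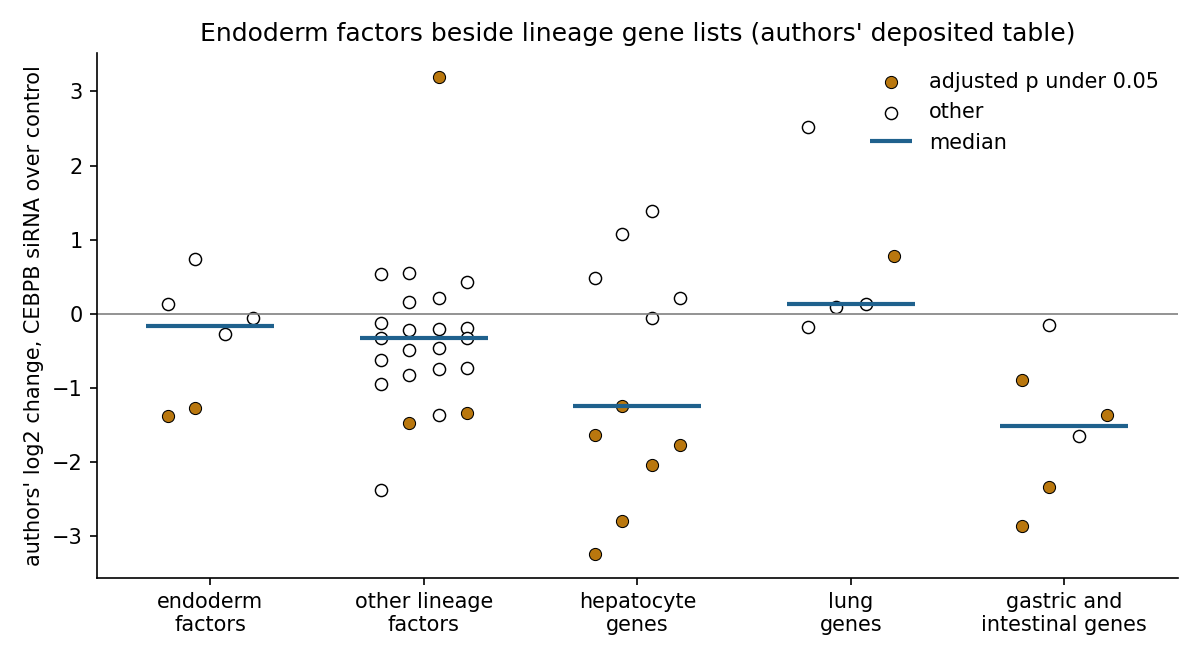
Authors' log2 change of CEBPB siRNA over control for the 6 endoderm factors and for the members of 4 lineage gene lists that have an authors' adjusted p; filled points have an adjusted p under 0.05 and the bar is the median of the points shown. The medians are -0.33 for other lineage factors (23 genes), -1.25 for hepatocyte genes (11), 0.13 for lung genes (5) and -1.51 for gastric and intestinal genes (6). For all genes with an adjusted p the median is -0.00413.

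The genes with the pattern most like that of FOXA1 or HNF4A were found by the distance between log2(FPKM + 1) values centred on each gene's mean over the 4 libraries, among 9510 genes that averaged 5 FPKM or more. Nearest to FOXA1 were PTPRU (distance 0.108), PCSK6 (0.195), ANG (0.209), GALNT4 (0.279) and ALDH2 (0.291). Nearest to HNF4A, whose controls differed more, were USH1C (0.471), IGFBP1 (0.534), ALDH2 (0.543), MDP1 (0.603) and ANG (0.611). PTPRU, a receptor tyrosine phosphatase gene, read 8.51 and 10.5 FPKM in the control libraries, 4.51 under siRNA-1 and 3.50 under siRNA-2. USH1C was at 9.34 and 12.3 FPKM in the controls, 3.97 under siRNA-1 and 1.94 under siRNA-2. With 4 libraries many genes can share an order, so these distances describe likeness only.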

How the data were processed

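RNA of 4 A549 libraries was sequenced as 76-base single reads from a strand-specific kit, per the labels. STAR 2.7.0d was used upstream together with HTSeq 0.13.5, StringTie 2.1.4 and DESeq2 1.26.0 on hg19, per the submitters' processing notes, which give no role or order. The deposited per-library values were taken as FPKM because their column sums differ, although the file headers name no unit. The authors' other deposited columns are a mean normalized count (a signal), a log2 change with its SE, a Wald score, and p-values, per the file headers. Those were quoted and not recomputed.

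The count test planned only if counts were given was not needed. Using R 4.3.3, limma 3.58.1 (trended prior) was fitted to log2(FPKM + 1) over 14068 genes, without a block. It had 2 residual and 3.61 prior degrees of freedom. The fit was also run on simulated data, with changes larger than those of HNF4A and FOXA1. That run does not show how often changes of their size would be called. A pseudocount of 1 understates the change of low genes. The siRNA contrast had 1 residual degree of freedom. Alternatives covered the pseudocount, filter, scaling, trend, block, 3 groups and each library left out. Same-numbered libraries deviated together with a correlation of 0.0754 across genes, so the numbers were not treated as pairs. Named were all members, CEBPB, up to 6 called genes per list by smallest p, and the 5 genes nearest in pattern to HNF4A and FOXA1. The members and lists were chosen with earlier results of these data known, and some listed genes are counted but not reported here by name. Promoters are those of RefSeq (GRCh38.p14), which held 6 of the 8 members; no hg19 coordinates were used.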

Additional observations from a re-analysis of the deposited data

How the results depend on the processing

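The count of members called lower in limma was 0 in the fit reported and 1 (FOXA1) with 3 groups; with 1 library left out it ranged from 0 to 1, the 1 being FOXA1 without siRNA-2, where the lone siRNA-1 library is assumed to vary as the controls do. No member was called higher under any of the 12 alternatives, and 0 differed between the siRNAs under the 6 that could be fitted; leaving out a control leaves that contrast no residual degrees of freedom, and it was not run. With a replicate block, 0 members were called lower and 0 higher. With no filter, or with either control left out, limma called no gene at all between siRNA and control. Those fits therefore cannot tell whether a member call is stable. HNF4A kept its direction in 12 of 12 alternatives and did not pass in any (limma adjusted p from 0.0775 to 0.9997). The changes near 0 turned sign with a library left out: HNF4G ranged from -0.36 to 0.32 (0.32 without control 1 and 0.18 without siRNA-2), FOXA2 from -0.052 to 0.35 (-0.029 without control 1 and -0.052 without siRNA-2) and FOXA3 from -0.33 to 0.042 (0.042 without siRNA-1). CEBPB lost its limma call without control 1, without control 2 and with no filter (adjusted p up to 0.461). Of 117 values for 10 other named genes, 0 turned sign and 21 gained a limma call, all lower, with 3 groups, with an siRNA library left out or with the filter of 5 FPKM. Calls gained with 3 groups or with an siRNA library left out carry the limit given for FOXA1, that the error can be understated. HNF4G and FOXA3 fell below a filter of 5 FPKM.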
